A study of Danio rerio with 6 samples.

Results

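Transcripts of plasma proteins that hepatocytes make were followed through RNA sequencing libraries of zebrafish testis. The set of 33 genes was listed by name, from knowledge of liver proteins and with earlier results of these data known. Each name was looked up among the gene symbols paired with the Ensembl identifiers of the count table. Of the 33 genes, 32 were found and apoba was not analysed here. All 32 passed the filter on low counts, among 26108 genes that passed out of 32520 in the table. The study held 6 libraries, each from the testes of 1 adult wild-type male zebrafish (Danio rerio). The 3 control fish (control 1-2, control 2-2 and control 3-1, named by replicate and animal number) lived in water without added plastic. The 3 exposed fish (exposed 2-2, exposed 3-1 and exposed 3-3) had nanoplastics of polystyrene, plastic particles too small to see, put into their water every 24 h for 96 h. The sources used here give neither particle size nor dose, nor the meaning of the replicate number, which is 2 for control 2-2 and exposed 2-2 and 3 for control 3-1, exposed 3-1 and exposed 3-3. The labels also name the cells of all 6 samples as germline, although somatic testis genes were abundant. RNA of the whole frozen organ was enriched for poly(A).

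The liver of fish, like that of mammals, secretes most proteins of the blood plasma: the apolipoproteins that carry lipid, fibrinogen for clotting, inhibitors of proteases, carriers of metals, haemoglobin and vitamins, and complement. Hepatocytes of egg-laying females also make vitellogenin, the yolk precursor, when oestrogen acts on them, and a mature male normally makes little of it. In zebrafish the testes lie in the body cavity near liver, gut and the diffuse pancreas. Levels of these transcripts in a testis library can therefore come from testis cells that transcribe the gene or from tissue taken along, and in RNA of a whole organ fewer cells of a type cannot be told apart from less RNA per cell.

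Counts per library ran from 76205591 to 108273937, with the exposed fish sequenced more deeply than the controls. Markers of testis were abundant in all 6 libraries: the synaptonemal complex gene SYCP1 lay between 732 and 1989 CPM and the Sertoli cell gene gsdf between 497 and 1244 CPM (CPM, counts per 1000000 after TMM scaling between libraries). No library went against its tissue label, but control 3-1 stood apart in the genes described here. The group comparison, the count of members highly correlated with a hepatocyte marker and the spread of summed levels are given with and without it. Most other results include it.

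The 32 transcripts took very different shares of the libraries. They made up 3.18% of all counts in control 3-1 (95% Wilson interval 3.17 to 3.18) and 1.245% in exposed 3-1 (1.243 to 1.247). The shares were 0.451% in exposed 3-3 (0.449 to 0.452), 0.309% in exposed 2-2 (0.308 to 0.310), 0.268% in control 1-2 (0.267 to 0.269) and 0.120% in control 2-2 (0.119 to 0.121). The intervals cover counting error only, and none of them overlap. The highest and the lowest share, 26.5-fold apart, were both found in control fish, with all 3 exposed fish between them. The 3 libraries of replicate number 3 had the 3 highest shares, and 20 of the 32 members had their 3 highest levels in them, against 4.52% of the 26108 genes tested. Within replicate number 2 the exposed fish had the higher share (0.309% against 0.120%), and within number 3 both exposed fish had lower shares than the control (1.245% and 0.451% against 3.18%). The part of the replicate number in the spread was not tested.

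**Figure D1:**
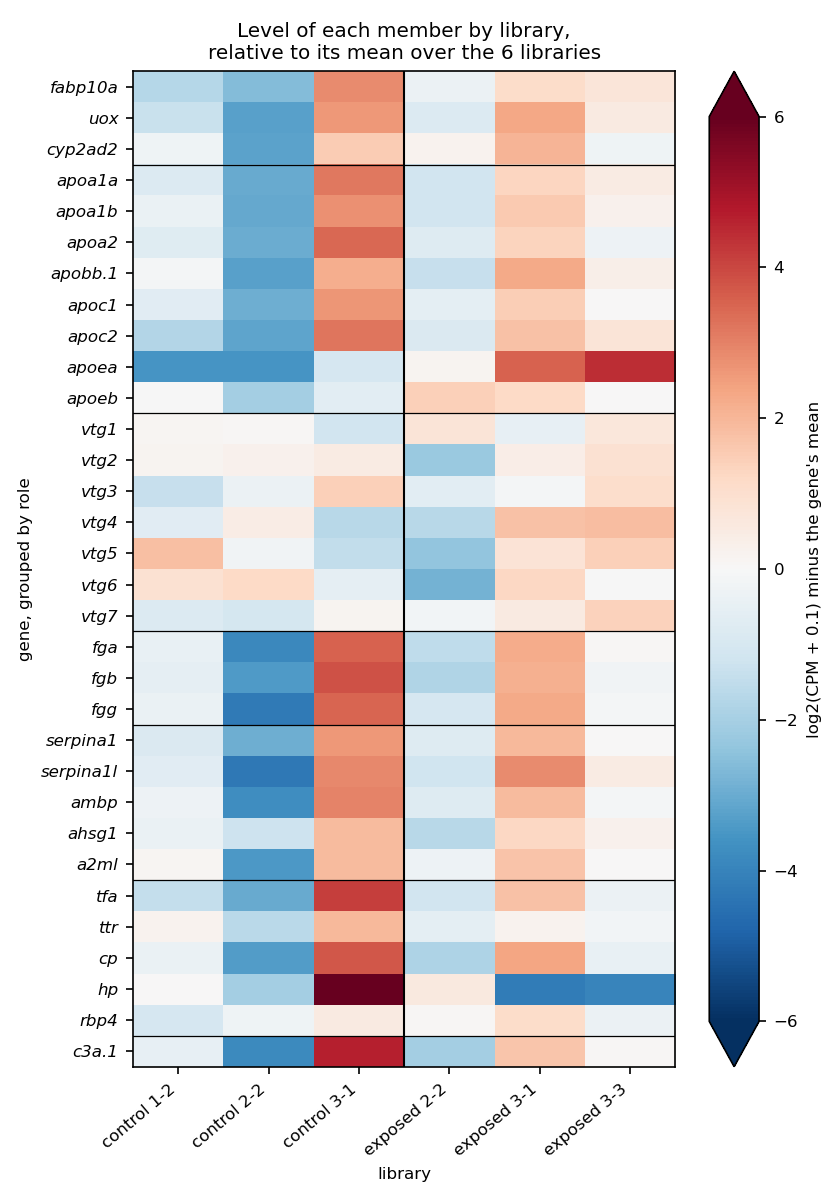
Level of the 32 genes (rows, grouped by role: hepatocyte markers, apolipoproteins, vitellogenins, fibrinogen, protease inhibitors, carriers, complement) in the 6 libraries (columns, controls left of the line), as log2(CPM + 0.1) minus the gene's mean over the libraries. Most rows are red in control 3-1 and exposed 3-1 and blue in control 2-2, whereas the vitellogenins, apoea, apoeb, hp and rbp4 have other patterns.

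The hepatocyte markers set the pattern. The gene fabp10a (ENSDARG00000038439) encodes the bile-acid-binding fatty acid binding protein of fish hepatocytes. It had 25.9, 13.7 and 599 CPM in control 1-2, 2-2 and 3-1, and 64.7, 179 and 139 CPM in exposed 2-2, 3-1 and 3-3. It was thus detected in every testis library, the control fish holding the highest and also the 2 lowest levels, with 43.7-fold between the extremes. Urate oxidase, uox (ENSDARG00000007024), a peroxisomal enzyme of purine breakdown, had 15.6, 3.96 and 236 CPM in the controls and 22.02, 197 and 56.9 CPM in the exposed fish. Its libraries stood in the same order as those of fabp10a. The cytochrome P450 gene cyp2ad2 (ENSDARG00000021172) had 11.1, 1.35 and 38.3 CPM in the controls and 15.7, 54.9 and 11.2 CPM in the exposed fish, so that here exposed 3-1 was the highest library and control 2-2 again the lowest.

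Among the 8 apolipoprotein genes measured, 6 followed the markers. The gene apoa1b (ENSDARG00000101324), for the main protein of high-density lipoprotein, had 324, 50.7 and 2829.9 CPM in the controls and 194, 1255 and 503 CPM in the exposed fish. Its paralog apoa1a had between 15.7 CPM in control 2-2 and 1163 CPM in control 3-1. The second protein of that particle, apoa2 (ENSDARG00000015866), had 154, 32.9 and 2839 CPM in the controls and 151, 656 and 208 CPM in the exposed fish. In all 3 genes control 3-1 stood highest, exposed 3-1 second and control 2-2 lowest. The scaffold of very-low-density lipoprotein, apobb.1, ran from 16.9 CPM in control 2-2 to 781 CPM in exposed 3-1, with 742 CPM in control 3-1. The small exchangeable apolipoprotein apoc1 spread 47.1-fold between libraries and apoc2, the activator of lipoprotein lipase, 85.5-fold. Reads of apoa1a and apoa1b may be split between these related genes, since the sources used here do not say how counting treated paralogs.

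The paralogs apoea and apoeb, ligands of lipoprotein receptors, did not follow the markers in order, and in both control 3-1 stood below every exposed fish. In zebrafish apoeb (ENSDARG00000040295) is also a gene of macrophages and microglia. It had 376, 92.8 and 243 CPM in the controls and 1021, 874 and 384 CPM in the exposed fish. Control 3-1, first for most of the set, stood above control 2-2 alone here, and the exposed fish all stood above the controls, exposed 3-3 by a narrow margin over control 1-2. The gene apoea (ENSDARG00000102004) had 0, 0 and 33 counts in the controls and 121, 1230 and 2787 counts in the exposed fish, or 1.18, 13.1 and 24.3 CPM in the latter. It was thus not detected in control 1-2 and control 2-2 and was low in control 3-1 (0.464 CPM). The floor of 3 counts equals between 0.0262 and 0.0422 CPM.

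The 3 chains of fibrinogen, the clot-forming protein, moved closely together. The alpha chain fga (ENSDARG00000020741) had 77.1, 7.06 and 1212 CPM in the controls and 35.8, 481 and 109.8 CPM in the exposed fish. The beta chain FGB ran from 11.4 to 1667 CPM and the gamma chain FGG from 4.13 to 928 CPM, both from control 2-2 to control 3-1. The folds between extremes were 172 for fga, 146 for FGB and 225 for FGG. Against that, the ratio of fga to FGB in a library stayed between 0.620 and 1.08, a 1.74-fold range, that of fga to FGG between 0.898 and 1.71, a 1.91-fold range, and that of FGB to FGG between 0.847 and 2.76, a 3.25-fold range. The chains thus kept far closer proportions than levels.

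Protease inhibitors were all highest in control 3-1, and 4 of the 5 were lowest in control 2-2. Alpha-1-antitrypsin is encoded by serpina1, which ran from 14.2 to 661 CPM, and by serpina1l, which ran from 4.68 to 688 CPM. The bikunin precursor ambp reached 444 CPM and spread 108.3-fold. All 3 had their lowest level in control 2-2 and their highest in control 3-1, with exposed 3-1 at 431, 664 and 208 CPM in that order. The alpha-2-macroglobulin-like gene a2ml was lower, between 0.726 and 34.1 CPM. Fetuin, ahsg1, which binds calcium phosphate, had the narrowest spread of these inhibitors at 11.8-fold, from 29.0 CPM in exposed 2-2 to 343 CPM in control 3-1. Reads of serpina1 and serpina1l may be split between them, and their ratio within a library ranged from 0.649 to 3.04.

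Of the carriers, transferrin tfa (ENSDARG00000016771), which binds iron, had 187, 61.7 and 8831 CPM in the controls and 226, 1708 and 385 CPM in the exposed fish. The copper protein ceruloplasmin, CP, ran from 7.93 CPM in control 2-2 to 1074 CPM in control 3-1, with 417 CPM in exposed 3-1. Transthyretin, TTR, a carrier of thyroid hormone, was low, at 1.50 CPM in control 2-2 and 19.0 CPM in control 3-1. These 3 carriers thus shared the highest and the lowest library. Complement factor c3a.1 (ENSDARG00000012694), the central protein of the complement cascade, had 151, 15.2 and 5411 CPM in the controls and 52.3, 684 and 227 CPM in the exposed fish. Its 355-fold spread was the widest of those members that had at least 3 counts in every library.

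Haptoglobin, hp (ENSDARG00000051890), which binds free haemoglobin, was nearly confined to a single fish. It had 154, 27 and 98490 counts in control 1-2, 2-2 and 3-1, and 266, 0 and 2 counts in exposed 2-2, 3-1 and 3-3. With 1385 CPM it was at least 43428-fold higher in control 3-1 than a floor of 3 counts allows in exposed 3-1, where the other plasma proteins were abundant. In exposed 3-3, which held 139 CPM of fabp10a, hp had 2 counts. Whether these fish differ in the gene itself, in how it matches the shared annotation or in its transcription was not tested.

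Retinol binding protein, RBP4 (ENSDARG00000101199), the carrier of vitamin A, was abundant in every library. It had 428, 719.9 and 1248 CPM in the controls and 899, 1844 and 672 CPM in the exposed fish. The 2 libraries rich in the other transcripts were again the highest, but the spread was only 4.31-fold. Control 2-2, lowest for most members, stood in the middle with a level above control 1-2 and exposed 3-3.

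**Figure D2:**
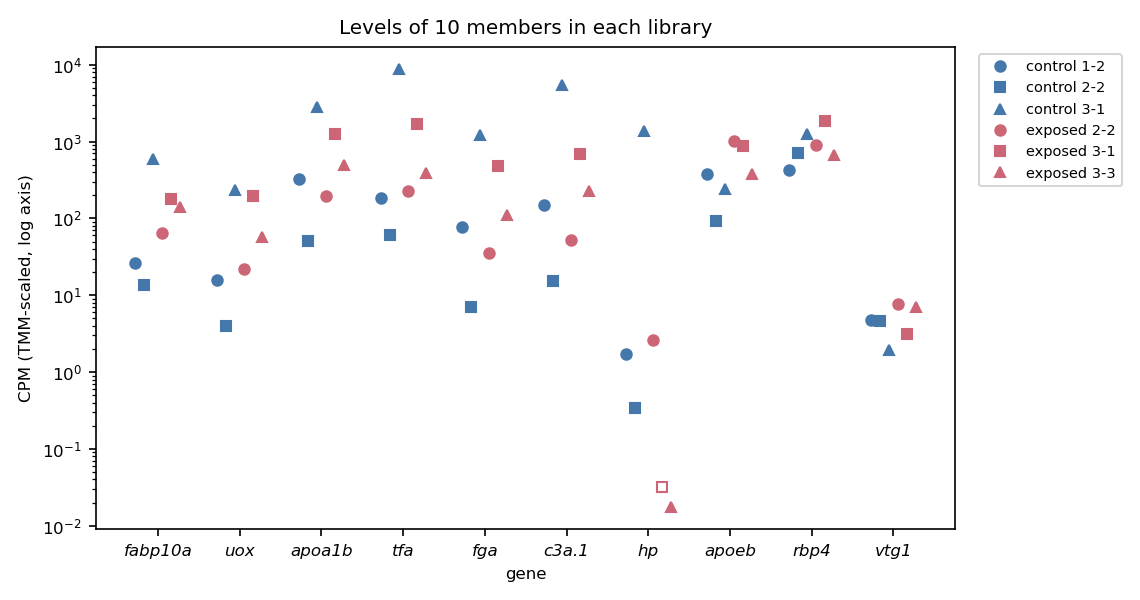
CPM of 10 genes in each library on a log axis, controls in blue and exposed fish in red, with 1 symbol per fish; the hollow symbol marks 0 counts and is drawn at the floor of 3 counts. For fabp10a, uox, apoa1b, tfa, fga and c3a.1 control 3-1 is the top point and control 2-2 the bottom point, while apoeb, RBP4 and vtg1 have other orders and hp is high in control 3-1 alone.

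Vitellogenins were at trace levels, and their sum did not have the order of the other liver transcripts. The 7 genes vtg1 to vtg7 had 1136, 763 and 606 counts together in control 1-2, 2-2 and 3-1, and 964, 1048 and 2140 counts in exposed 2-2, 3-1 and 3-3. This equals 12.7, 9.72 and 8.52 CPM in the controls and 9.43, 11.1 and 18.7 CPM in the exposed fish. The library with the highest share of plasma protein transcripts, control 3-1, had the lowest sum, and the sum ranged 2.19-fold. Reads of such similar paralogs may be lost in counting, which would lower the sum as well. Since reads may also be split between them, the sum is in that respect more secure than the single genes. Among these vtg1 had 4.78, 4.69 and 1.94 CPM in the controls and 7.77, 3.12 and 7.09 CPM in the exposed fish. The gene vtg3, whose protein lacks the phosphate-rich domain of the others, had 0.559, 1.22 and 4.56 CPM in the controls and 0.998, 1.47 and 3.51 CPM in the exposed fish, and was the only one of the 7 with its highest level in control 3-1. The genes vtg2, vtg4 and vtg6 had 0 counts in exposed 2-2, and vtg4 also in control 3-1. The difference in summed vitellogenin between the groups did not pass (exact permutation test on log2 CPM, two-sided p = 0.6, where 3 against 3 fish allow no p below 0.1). The oestrogen receptor gene ESR1, through which vitellogenin is induced in liver, had 2.96, 10.7 and 6.72 CPM in the controls and 8.04, 25.2 and 8.59 CPM in the exposed fish, with overlap.

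How far the members varied together was measured against fabp10a. After the values were seen, the 7 vitellogenins, apoea, apoeb and RBP4 were set apart, which left 22 genes. The choice did not go by correlation with fabp10a alone. The Pearson correlation of log2 CPM was 0.387 for hp, which stayed in. It was higher for vtg3 (0.782), vtg7 (0.731), RBP4 (0.661) and apoea (0.652), which were set apart. The counts over this trimmed set are a description and carry no test. Of the 22, 20 were highest in control 3-1 and 20 were lowest in control 2-2. Both held for 18 of the 22 and for 18 of all 32 members, against 2.72% of the 26108 genes tested. Control 3-1 and exposed 3-1 were the top pair in 21 of the 22 (all but hp) and in 22 of the 32, against 6.22% of all genes. Exposed 3-3 stood next below that pair in 17 of the 22. The lower libraries were less orderly, with control 1-2 above exposed 2-2 in 14 genes and below it in 8.

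Pearson correlations of log2 CPM with fabp10a over the 6 libraries reached 0.9 in 14 of the other 31 members, against 1.08% of all other genes tested. All 14 lay among the 22 genes. The median over the 32 members was 0.87, against -0.04 over all genes tested. For apoc2 the correlation was r = 0.991 (exact permutation p = 0.00278) and rho = 1.00 (exact permutation p = 0.00278). For tfa it was r = 0.950 (exact permutation p = 0.00417) and rho = 1.00 (exact permutation p = 0.00278). For apoeb it was r = 0.343 (exact permutation p = 0.507) and rho = 0.257 (exact permutation p = 0.658), and for vtg1 r = -0.556 (exact permutation p = 0.256) and rho = -0.486 (exact permutation p = 0.356). The vitellogenins were mixed, from that value up to r = 0.731 for vtg7 (exact permutation p = 0.0972, rho = 0.771 with p = 0.103) and r = 0.782 for vtg3 (exact permutation p = 0.0694, rho = 0.771 with p = 0.103). Since 6 libraries have 720 orders, no p can go below 0.00139, and adjusted over the genes tested (Benjamini-Hochberg) the smallest permutation p of any gene's r was 0.768, so none passed. Control 2-2 and control 3-1 were the libraries farthest from the median of fabp10a. Without them, r over the 4 remaining was 0.969 for apoc2, 0.812 for tfa and 0.641 for fga. Over the 20 genes left when hp and fabp10a are set aside, the median was 0.65 and the lowest value -0.02, for TTR. For hp it was -0.87. For apoea, which was set apart, r was 0.976 over these 4 libraries and 0.652 over all 6 (exact permutation p = 0.158). Leaving out the 2 extremes of fabp10a itself narrows its range, so a lower r was likely beforehand for most genes. The change differed between genes, and how far the relation rested on those 2 fish was not tested. At a threshold of 0.9 the count of members was 6 without control 2-2 and 8 without control 3-1 (1.56% and 2.66% of all genes).

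Between pairs of the 22 genes, 176 of 231 correlations were at least 0.9 (median 0.950), and all pairs below 0.70 involved hp. Between a vitellogenin and one of the 22, 0 of 154 were at least 0.9 (median 0.02). These correlations share the same 6 libraries, and the 22 genes were picked after their values were seen. The correlations are given as a description, and nothing is read from the difference.

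**Figure D3:**
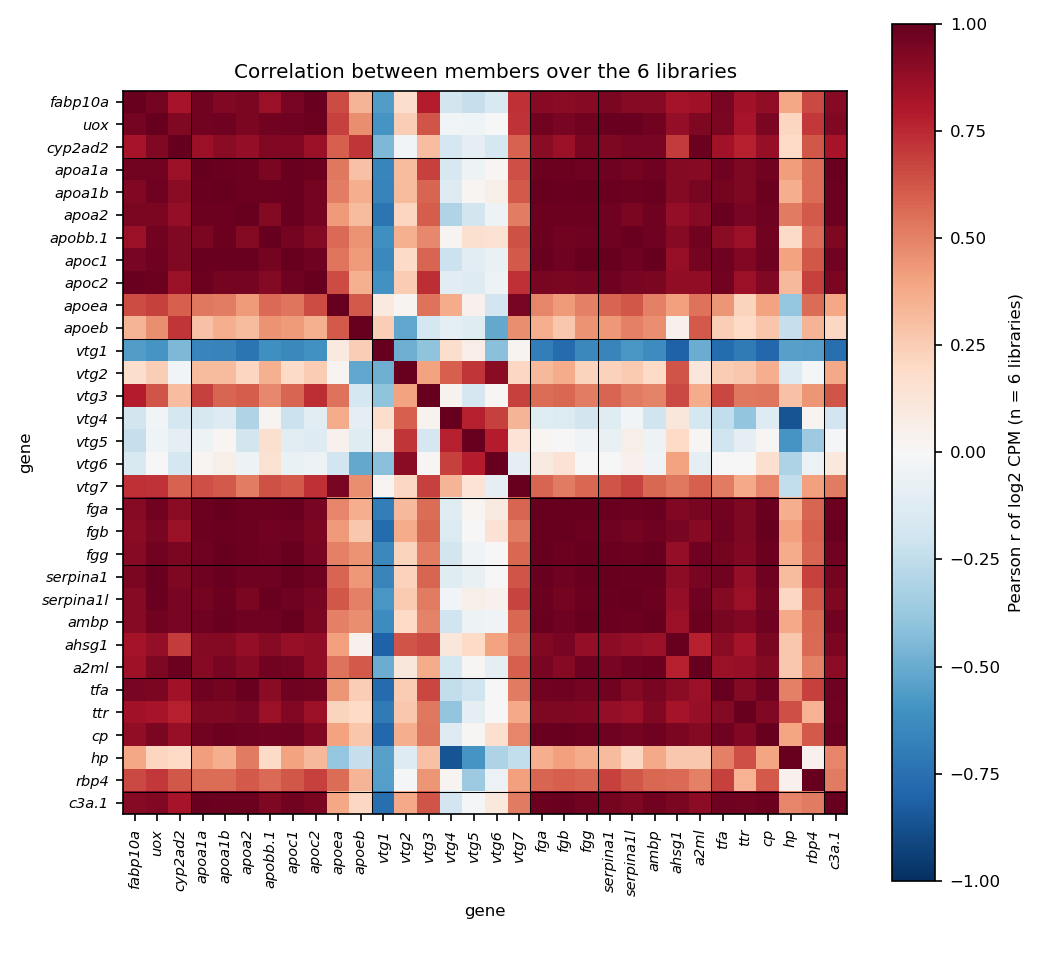
Pearson correlation of log2 CPM between all pairs of the 32 genes over the 6 libraries, with genes in the order of their roles and lines between roles. The hepatocyte markers, most apolipoproteins, fibrinogen, inhibitors, most carriers and c3a.1 form a dark red block, which the vitellogenins, apoea, apoeb, hp and RBP4 interrupt.

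The ratios to fabp10a moved less between libraries than the levels did. Apart from hp, the 22 genes spread between 11.8-fold and 355-fold in level (median 74.2). Their ratios to fabp10a, for the 20 genes left, spread between 2.41-fold (apoc2) and 11.2-fold (c3a.1), with a median of 5.88. Of the genes set apart, the ratio to fabp10a spread 38.8-fold for apoeb and 25.2-fold for RBP4. Among the 4 vitellogenins with counts in every library it spread 11.7-fold for vtg3, 14.4-fold for vtg7, 106-fold for vtg1 and 273-fold for vtg5, so that vtg3 was close to c3a.1. The 22 genes had been picked after their values were seen, most of them following fabp10a, so nothing is read from this difference. For apoa1b the ratio was 12.5, 3.71 and 4.73 in the controls and 2.99, 7.02 and 3.61 in the exposed fish.

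Control 3-1 and exposed 3-1, the libraries with most of these transcripts, differed from each other in a graded way. Control 3-1 exceeded exposed 3-1 by 7.91-fold for c3a.1, 5.17-fold for tfa and 4.32-fold for apoa2. It exceeded it by 3.35-fold for fabp10a and 2.52-fold for fga. The difference was small for uox (1.20-fold) and serpina1l (1.04-fold), and the ratio was below 1 for apobb.1 (0.950) and cyp2ad2 (0.697). The median over the 21 genes without hp was 2.37. With 1 fish on each side this is a comparison of these libraries and not of the groups.

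**Figure D4:**
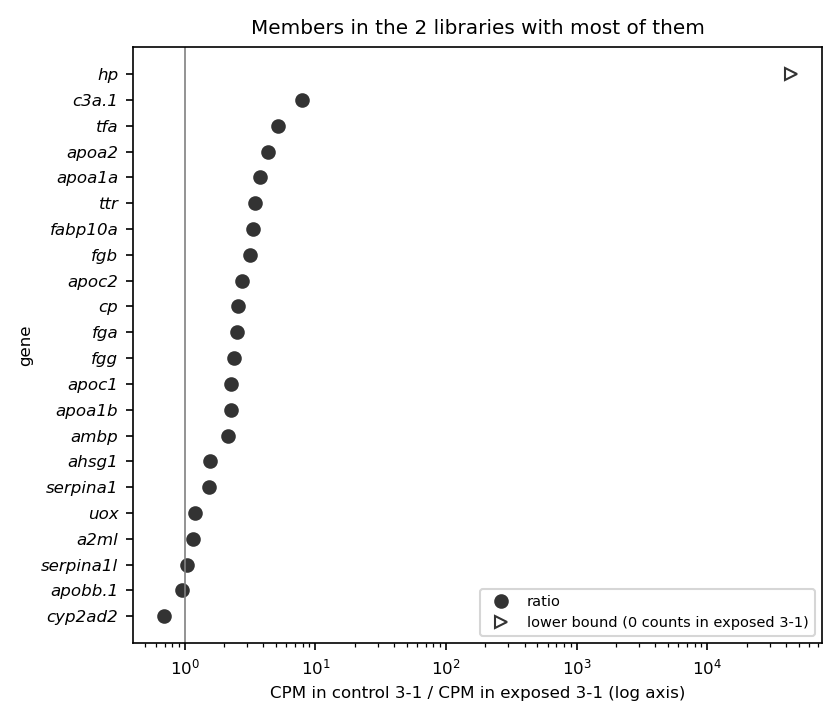
CPM in control 3-1 divided by CPM in exposed 3-1 (log axis) for each of the 22 genes, sorted; the vertical line marks equal levels and the open triangle a lower bound against the floor of 3 counts. Ratios run from 0.697 for cyp2ad2 to 7.91 for c3a.1, and hp lies apart at 43428 or more.

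Exposed and control testes were compared with edgeR's quasi-likelihood test over all 26108 genes. None of the 32 members passed at a Benjamini-Hochberg adjusted p of 0.05, where 0% of all genes tested passed. The smallest adjusted p among the members was 0.224 for apoeb, whose control fish had 237 ± 142 CPM and exposed fish 759 ± 333 CPM (SD, n = 3 each), with a log2 fold change of 1.68 ± 0.56 (SE). At an unadjusted p under 0.05, 2 members were higher in exposed fish, apoeb and apoea, and 0 were lower, against 9.68% of all genes on the higher side. These 2 were also the members whose groups did not overlap, both higher in exposed fish, against 12.8% of all genes higher and 10.9% lower without overlap. The log2 fold change of apoea came to 6.39 ± 2.19 with an edgeR adjusted p = 0.247. DESeq2 called 1 of the 32 members, apoeb (adjusted p = 0.0224), against 6.57% of all genes tested, and gave no adjusted p for 5 (apoa2, FGB, tfa, hp and c3a.1). For apoeb, edgeR's adjusted p ranged from 0.124 to 0.464 among the alternatives. All 13 macrophage markers measured had a log2 fold change above 0, though none passed edgeR's test at an adjusted p of 0.05 (11 at an unadjusted p under 0.05, 8 by DESeq2), and their summed level was 1196 to 1708 CPM in controls and 2921 to 5990.1 CPM in exposed fish. Their part in the level of apoeb was not tested.

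For several other members the direction between groups changed when control 3-1 was left out. The log2 fold change was -0.74 ± 1.44 for fabp10a, -1.97 ± 1.90 for tfa and -2.53 ± 2.07 for c3a.1 (edgeR adjusted p = 0.862, 0.689 and 0.624). Without control 3-1 the same genes had 2.67, 2.62 and 1.93, still without passing. The sign of hp, vtg1, RBP4 and uox did not change without it, but uox turned without control 1-2 (-0.39), control 2-2 (-0.47) or exposed 3-1 (-1.12), and RBP4 without exposed 3-1 (-0.039). Over the 32 members 11 were above 0 and 21 below, with a median of -0.45, against a median of 0.04 and 13599 of 26108 above 0 for all genes tested. Without control 3-1, 28 of 32 were above 0 and the median was 1.95, and without exposed 2-2 17 were above 0 with a median of 0.07. Limma voom, which averages log values and so gives less weight to 1 high library, placed 25 of 32 above 0 (median 0.58). The SD within the controls exceeded their mean for most members, for example 213 ± 334 CPM for fabp10a against 128 ± 57.9 CPM in exposed fish. The estimates for uox (0.11 ± 1.56), RBP4 (0.51 ± 0.49) and vtg1 (0.66 ± 0.57) also missed the threshold (edgeR adjusted p = 0.986, 0.677 and 0.632).

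Variation between fish was wide for these genes compared with the transcriptome. The median difference between the highest and lowest library was 5.71 on the log2 scale over the 32 members, against 1.76 over all genes tested. The median biological coefficient of variation from edgeR was 116%, against 50.0% over all genes.

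Many hepatocyte genes outside the set, but not all, showed the same libraries at the extremes. Of 95 further hepatocyte genes listed, 71 were measured. In 35 of these 71 control 3-1 was highest and control 2-2 lowest, against 2.72% of all genes tested. In 54 of the 71, control 3-1 and exposed 3-1 were the top pair, against 6.22% of all genes. Correlations with fabp10a reached 0.9 in 21 of the 71, against 1.08% of all other genes tested. They ran from -0.55 to 0.97, with a median of 0.85. Their summed level was 2765, 1508 and 22437 CPM in the controls and 2922, 13144 and 4058 CPM in the exposed fish. Fetuin B, fetub, ran from 38.5 to 2079 CPM, the tyrosine-degrading enzyme hpda from 25.7 to 850.4 CPM, and complement factor cfb from 3.58 to 1259.7 CPM, each from control 2-2 to control 3-1. The methyltransferase BHMT had 666 CPM in control 3-1 and 681 CPM in exposed 3-1. Of the others among the 10 with the highest mean, cfhl4, c9 and c4b had control 3-1 on top at 948, 752 and 978 CPM, as did c3a.6 at 577 CPM, and sdc4, a syndecan of many tissues, had exposed 2-2 on top at 327 CPM. None of the 71 passed edgeR's test (smallest adjusted p = 0.150). At an unadjusted p under 0.05 there were 4 (3 higher and 1 lower), against 4298 of the 26108 genes tested. DESeq2 called 2, against 6.57% of all genes tested.

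Transcription factors of hepatocytes did not follow as a list. The 13 measured summed to 107.7, 132 and 401 CPM in the controls and 583, 475 and 799 CPM in the exposed fish. They were led by CEBPB and CEBPA, which many tissues express. A correlation of 0.9 with fabp10a was reached by 0 of 13, against 1.08% of all other genes tested. The most abundant, CEBPB, had 24.5, 31.6 and 283 CPM in the controls and 299, 238 and 622 CPM in the exposed fish. CEBPA had 27.8, 39.9 and 26.6 CPM in the controls and 101, 99.4 and 93.0 CPM in the exposed fish. Of the 13 factors, 12 had a log2 fold change above 0 and 1 below. None passed edgeR's test (smallest adjusted p = 0.106). At an unadjusted p under 0.05, 3 were higher in exposed fish, against 9.68% of all genes tested. DESeq2 called 2, against 6.57% of all genes. The 4 genes measured of bile duct and stellate cells summed to between 565 and 967 CPM, with krt18a.1 and ANXA4 at 368 to 679.8 and 129 to 266 CPM. The 4 of the oestrogen response list (ESR1 and PGR the most abundant, PGR at 24.2 to 52.3 CPM) summed to between 37.0 and 78.3 CPM.

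Other abdominal organs had their own order of libraries. The 15 genes of the acinar pancreas summed to 1899, 1160.5 and 284 CPM in the controls and 641, 3623 and 1189 CPM in the exposed fish. Control 3-1, richest in liver transcripts, was the poorest in these, whereas exposed 3-1 was high in both. The trypsinogen gene prss1 had 38.5 CPM in control 3-1 and 619 CPM in exposed 3-1, and prss59.1 had 37.2 and 510.4 CPM. The 14 intestinal genes summed to 31.1, 33.3 and 33.4 CPM in the controls and 123, 195 and 166 CPM in the exposed fish, led by chia.1 (0.0563 to 52.3 CPM) and VIL1 (1.41 to 28.0 CPM). Of these 14 genes, apoa4b.1 and CYP8B1 were also on the list of other hepatocyte genes. They had 15.7 and 2.81 CPM in control 3-1 and 25.4 and 25.2 CPM in exposed 3-1. The intestinal sum and apoea both had all exposed fish above all controls, and the part of intestine in the level of apoea was not tested. Of the 14 intestinal genes 12 had a log2 fold change above 0, and 0 passed edgeR's adjusted test. At an unadjusted p under 0.05, 8 were higher in exposed fish, against 9.68% of all genes tested. DESeq2 called 7, against 6.57% of all genes, and FABP2 had 0 counts in control 3-1. The 5 genes of the endocrine pancreas summed to between 5.26 and 67.7 CPM, with gcga at 60.4 CPM in exposed 3-3 and NEUROD1 between 0.196 and 3.48 CPM.

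Markers of skin, immune and blood cells peaked in exposed fish, and those of testis cells in controls. The 21 epidermal genes summed to 1628, 3778 and 2041 CPM in the controls and 17096, 13889 and 2377 CPM in the exposed fish, with krt91 at 4408 and krt5 at 3672 CPM in exposed 2-2. Macrophage genes peaked in the same fish, cd74a at 2733 and cd74b at 2056 CPM. The 8 red blood cell genes summed to 2235, 973 and 869 CPM in the controls and 3959, 4524 and 3209 CPM in the exposed fish, with hbaa1 between 685 and 4031 CPM and cahz between 91.0 and 398 CPM. The 12 oocyte genes, among them org (54.0 to 117 CPM) and buc (7.56 to 24.0 CPM), summed to between 108.3 and 184 CPM. The 11 germ cell genes, among them SYCP1 and PIWIL1 (585 to 1403 CPM), summed to 7415, 7698 and 7727 CPM in the controls and 4198, 3382 and 5089.9 CPM in the exposed fish. The 9 genes of Sertoli and Leydig cells, gsdf and STAR (547 to 1344 CPM) among them, summed to between 3261 and 6879 CPM. In none of the lists of other tissues or testis cells, apart from hepatocytes, did a gene reach a correlation of 0.9 with fabp10a. The highest was 0.899, for apoa4b.1 of the intestinal list. Among all other genes tested 1.08% reached 0.9, so lists this short would hold few such genes. Nothing is read from their absence.

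**Figure D5:**
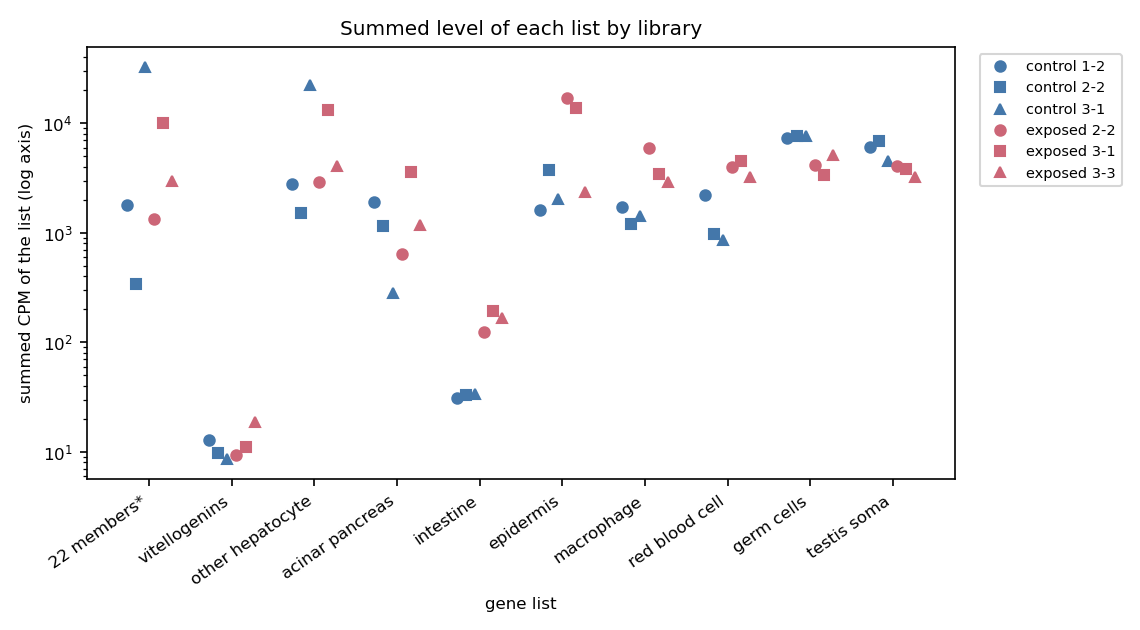
Summed CPM of each gene list in each library on a log axis, controls in blue and exposed fish in red; the 22 members marked with an asterisk are those without vitellogenins, apoea, apoeb and RBP4. The 22 members and the other hepatocyte genes have control 3-1 on top (32941 and 22437 CPM) and control 2-2 at the bottom (343 and 1508 CPM), while the acinar pancreas has control 3-1 at the bottom (284 CPM).

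Among genes on neither hepatocyte list with a mean of at least 1 CPM, the 10 most like fabp10a over the 6 libraries had correlations between 0.975 and 0.997. The nearest was complement factor H, cfh (ENSDARG00000100442), with 35.1, 17.4 and 393 CPM in the controls and 59.7, 137 and 104 CPM in the exposed fish. In its ratio to fabp10a it spread only 2.06-fold. The cerebellin-like gene cbln8 ran from 2.37 to 119.6 CPM, rltgr from 1.35 to 35.4 CPM, hs3st1l2 from 1.02 to 10.6 CPM, ALDH8A1 from 4.40 to 20.1 CPM and TSPEAR from 0.459 to 2.87 CPM. The other 4 spread far less than fabp10a, at 1.95-fold for SPSB1, 2.08-fold for heg1, 1.63-fold for stab1 and 1.61-fold for tanc1a. A high correlation over 6 libraries therefore did not by itself mark a transcript that moved as far as fabp10a.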

How the data were processed

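The values are raw counts per Ensembl gene, 1 column for each fish, as the authors deposited them. Per the submitters' processing notes, reads were aligned with STAR to GRCz11. Counting tool, annotation, strand setting and handling of mates: not given in the sources used here. Between 66.8% and 75.1% of counts from 10 to 99 were even, so counting of both mates is possible and intervals may be too narrow. Columns were matched to fish by the description in each label and 0 were left out. No pair of libraries agreed within sampling noise (lowest chi-square over its degrees of freedom 156). A names table gave a symbol to 29201 of 32520 identifiers, matched without regard to case. Where several identifiers carry a listed symbol, the one with most counts was used.

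From the counts, genes were kept by filterByExpr, scaled by TMM, and compared in edgeR 4.0.16 (robust quasi-likelihood, two-sided, group as the only term), adjusted by Benjamini-Hochberg over all genes. The SE is the absolute log2 fold change over the square root of F. DESeq2 1.42.0 and limma 3.58.1 ran beside it, in R 4.3.3. For correlations, log2 CPM took 2 as prior count. Members, lists and the rule for named genes (all members, the 10 most abundant other hepatocyte genes, 2 of each other list, and the 10 genes most like fabp10a) were chosen with earlier results of these data known. One of the other hepatocyte genes so named is not reported here. The other lists cover hepatocyte genes and their transcription factors, bile duct and stellate cells, oestrogen response, pancreas, intestine, epidermis, macrophages, red blood cells, oocytes and testis cells. The fit was tested on simulated data. Other normalizations, filters, prior counts, halved counts, the replicate number as a block and each library left out were alternatives, and other reference genes were added after seeing the data.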

Additional observations from a re-analysis of the deposited data

How the results depend on the processing

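No member was called by edgeR under any alternative run, each left-out library included, and DESeq2 called 1 (apoeb). Calls over all genes were 0 in the main edgeR run with TMM. DESeq2, run without the filter on low counts, called 1756, of which 1716 were among the 26108 genes tested. The calls of edgeR were 1 each with upper quartile, relative log expression, halved counts and unscaled library totals. They were 12 without a filter and 5 with the replicate block, and ran from 0 to 396 (without exposed 3-3) when a library was left out. The causes were not tested. The replicate block changed no call of a member. Over all genes tested, same-numbered libraries did not deviate together from their group means (correlations -0.01, 0.02 and -0.03), so the numbers were not treated as pairs. This does not describe the members, of which 20 of 32 had their 3 highest levels in the libraries of number 3, against 4.52% of all genes. Limma voom turned the sign of fabp10a (1.01), apoa1b (0.47), apoa2 (0.18), fga (0.52) and tfa (0.19). When libraries were left out in turn, log2 fold changes ran from -1.30 to 2.67 for fabp10a, -1.12 to 3.21 for uox, -1.62 to 1.78 for apoa1b, -2.50 to 1.84 for apoa2, -2.58 to 2.29 for fga, -3.32 to 2.62 for tfa, -3.74 to 1.93 for c3a.1 and -0.039 to 0.97 for RBP4; the upper ends came without control 3-1. Members with r of at least 0.9 to fabp10a, 14, ran from 6 (without control 2-2) to 18 (without control 1-2), and were 14 to 16 under other scalings, prior counts, Spearman's rho or group-centred values and 18 to 20 with apoa2, fga or tfa as the reference. The spread of summed member levels, 29.5-fold, was 10.8-fold without control 3-1 and 13.2-fold without control 2-2. Depth limits the vitellogenins, several of which had under 100 counts a library.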
